A study of Mus musculus with 6 samples.

Results

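The heparin-binding growth factor genes Ptn (pleiotrophin) and Mdk (midkine), together with 6 genes for proteins that bind these factors, were followed in mouse retina at P2, postnatal day 2, by sequencing of poly-A RNA. The 6 binding partners were Ptprz1, Alk, Sdc1, Sdc3, Sdc4 and Ncl. The 8 genes were taken by symbol from a table of 20175 genes, and all 8 were found. Ptn was chosen because its mutant and control values in these libraries were known to differ, and the other 7 as its paralog and receptors. Their values in the comparison of mutants with controls are therefore given as a description, with no p-value, and where they are counted against a threshold the count follows from that choice and supports nothing. The tested samples were 3 retinas of Zeb2 loxp/loxp αCre mice, called Zeb2 mutant, and 3 retinas labelled only as control. αCre drives recombination from a Pax6 element in the peripheral part of the retina, so cells elsewhere keep Zeb2. Whether the controls carried loxP sites or the Cre is not given by the labels, nor are strain, litter or sex. The labels do not tie the 3 samples of a group to different animals, and p-values therefore cover no more than the variation among the samples at hand, possibly technical.

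Pleiotrophin and midkine form a family of small secreted, cysteine-rich proteins with many basic residues, which hold them to sulphated sugar chains at the cell surface and in the matrix. PTPRZ1, a receptor tyrosine phosphatase that carries chondroitin sulphate, is inhibited when pleiotrophin clusters it, and the phosphorylation of its substrates then rises. Syndecans carry heparan sulphate and act as co-receptors, with syndecan-3 known as the neuronal pleiotrophin receptor. ALK, a receptor tyrosine kinase, and nucleolin, a nucleolar protein also found at the cell surface, have been described as further receptors. In developing nervous tissue both factors are known from progenitor cells and glia.

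The libraries held 26041200 to 28250928 reads on genes in Zeb2 mutants and 26064213 to 32614805 in controls. Zeb2 itself, a zinc-finger repressor that binds Smads, had 5581.4, 4273.6 and 5049.7 normalised counts in mutant libraries 1, 2 and 3, against 5989.7, 6448.7 and 5916.7 in the controls. The mutant values all lay below the control values, and mutants averaged 81.2% of controls (log2 fold change -0.31 ± 0.0896 SE). This did not pass the test over all genes (limma adjusted p = 0.129), and an exact 2-sided permutation test gave p = 0.1, below which 3 mutant and 3 control samples cannot go. The limma adjusted p was 0.0375 without mutant library 1, and DESeq2 gave 0.0144 (range over alternatives 0.0144 to 0.316). The count covers the whole gene, so transcripts that lack only a deleted exon are still counted, and an antisense gene, Zeb2os, is annotated within it. All 12 defining markers of neural retina were detected, with summed normalised counts of 176167.3 to 188204.0 in mutants and 180785.3 to 183185.9 in controls. In bulk tissue, fewer cells of a type and less RNA per cell cannot be told apart, here or in any comparison that follows.

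The stretches before the start sites of the 4 genes below are shown because Ptn carries the main difference and because Ptprz1, Sdc1 and Sdc3 had no mutant value as high as the lowest control value. RefSeq promoters on GRCm38.p6 matched 7 of the 8 genes, all but Mdk. Each line gives the bases before the RefSeq start site, 5′ to 3′ on the gene's strand, up to 250 bases. Bases inside the gene as annotated by GENCODE M21 are left out. Ptn (chr6:36810221-36810429, minus strand) has 209 bases, Ptprz1 (chr6:22875252-22875501, plus strand) 250, Sdc1 (chr12:8771146-8771322, plus strand) 177 and Sdc3 (chr4:130792287-130792536, plus strand) 250. Capitals mark CACCT or its reverse complement, the core bound by ZEB zinc fingers, which is in the Ptprz1 and Sdc1 lines.
Ptn: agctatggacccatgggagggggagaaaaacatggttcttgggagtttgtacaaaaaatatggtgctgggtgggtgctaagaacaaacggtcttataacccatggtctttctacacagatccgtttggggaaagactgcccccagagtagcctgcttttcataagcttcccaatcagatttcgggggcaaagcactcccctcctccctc
Ptprz1: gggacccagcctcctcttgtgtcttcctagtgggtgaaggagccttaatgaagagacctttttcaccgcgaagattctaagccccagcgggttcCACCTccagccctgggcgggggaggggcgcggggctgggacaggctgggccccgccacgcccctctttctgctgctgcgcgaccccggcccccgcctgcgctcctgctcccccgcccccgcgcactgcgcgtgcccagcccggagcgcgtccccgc
Sdc1: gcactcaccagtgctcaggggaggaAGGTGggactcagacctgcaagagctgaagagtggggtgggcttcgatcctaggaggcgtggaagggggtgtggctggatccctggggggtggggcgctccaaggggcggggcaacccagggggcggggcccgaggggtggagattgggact
Sdc3: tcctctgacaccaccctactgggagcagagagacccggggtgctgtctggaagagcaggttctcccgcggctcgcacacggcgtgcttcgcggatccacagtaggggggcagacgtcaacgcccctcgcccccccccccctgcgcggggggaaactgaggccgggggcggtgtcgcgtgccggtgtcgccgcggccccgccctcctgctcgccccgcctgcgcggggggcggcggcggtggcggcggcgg

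In the full 250-base windows, CACCT was found on either strand once each before Ptprz1, Alk and Sdc1, starting 156, 188 and 225 bases before the RefSeq start site. The Alk and Sdc4 windows lie wholly inside these genes as GENCODE M21 annotates them. CACCT was in 46.0% of 32851 windows of all RefSeq promoters. The longer E-box CACCTG, which contains CACCT, was in none of the 7 windows and in 17.2% of all windows. The Smad palindrome GTCTAGAC was in none of the 7 and in 0.167% of all windows. The Ptn window therefore holds none of these letters, and its G and C content was 52.0%, against 65.2% to 76.4% in the other 6 windows and a median of 52.4% over all windows.

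Ptn was the gene of the 8 with the largest difference between the groups. It lies at chr6:36714929-36810220 on the minus strand (GRCm38) and shares no exon bases with another annotated gene. Its normalised count was 10673.5, 14960.9 and 11956 in mutant libraries 1, 2 and 3, against 3862.2, 3903.6 and 4486.6 in control libraries 1, 2 and 3. Every mutant library lay far above every control library, with library 2 the highest of the mutants and library 3 the highest of the controls. The means were 12530.1 ± 2201 in Zeb2 mutants and 4084 ± 349 in controls (SD, n = 3 each). On the log2(normalised count + 1) scale the fold change was 1.61 ± 0.115 (SE; 95% interval 1.34 to 1.87), which is 3.04-fold (2.54 to 3.65). The mutant libraries ranked 2, 3, 1 from high to low for Ptn, and 1, 3, 2 for Zeb2. Whether these orders are linked was not tested, and 3 libraries are too few for such a test. Of 6729 genes with a mean of at least 1000 normalised counts, a level set after the values were seen, 2 had a larger log2 fold change than Ptn, and 5, Ptn included, had at least 1.

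Mdk, the paralog, also stood higher in the mutants, by much less. It lies at chr2:91929805-91932297 on the minus strand. Its normalised count was 7768.7, 9676.2 and 7249.6 in mutant libraries 1, 2 and 3, against 6192.1, 6678.4 and 7066.7 in the controls. The groups did not overlap, but mutant library 3 was only a little above control library 3. The means were 8231.5 ± 1278 in mutants and 6646 ± 438 in controls (SD, n = 3 each), a log2 fold change of 0.30 ± 0.101 (SE; 95% interval 0.069 to 0.53). Without mutant libraries 1 and 2 it was 0.13, and without mutant library 2 alone it was 0.18.

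**Figure D1:**
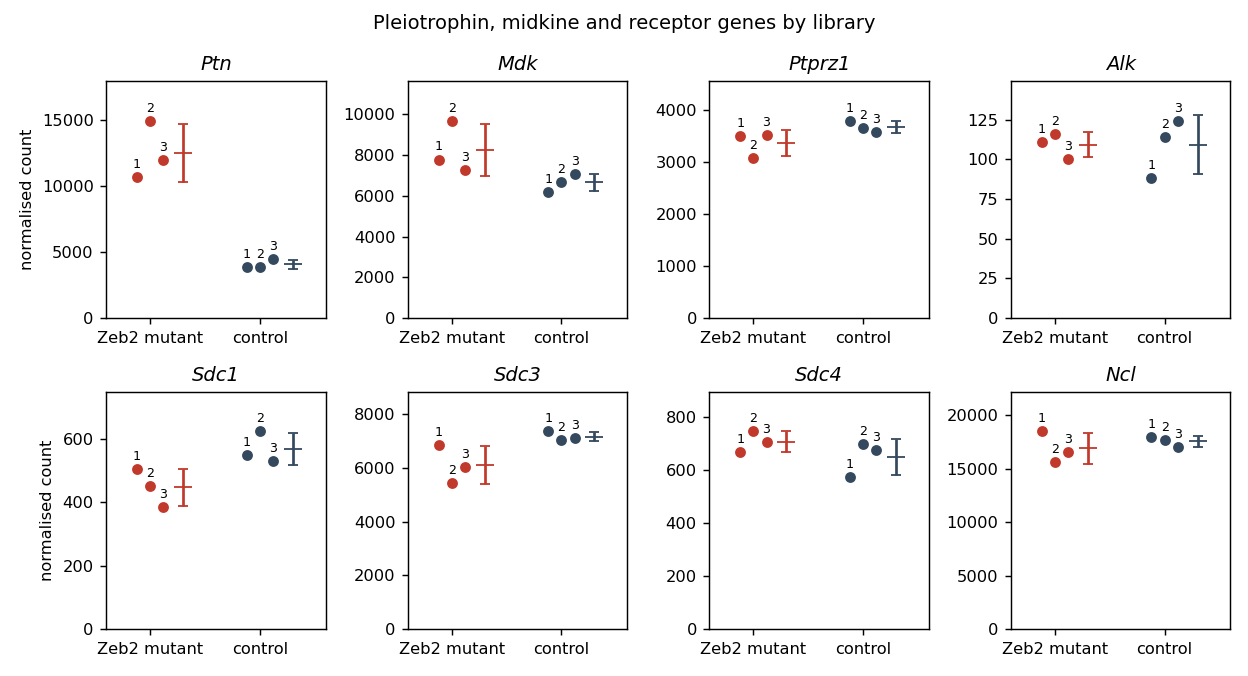
Normalised count of each of the 8 genes (vertical axes, all from 0) in the 3 Zeb2 mutant and 3 control libraries. Points are libraries with their replicate number, and bars beside them are the mean and SD. Ptn lies between 10673.5 and 14960.9 in mutants and between 3862.2 and 4486.6 in controls, while Alk, Sdc4 and Ncl overlap between the groups.

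The ratio of the ligands' transcripts within a library, which scaling between libraries cannot alter, was higher in every mutant library than in the controls. Per kilobase of annotated exon, Ptn had 0.530, 0.596 and 0.636 times the level of Mdk in mutant libraries 1, 2 and 3, against 0.241, 0.225 and 0.245 times in the controls. Ptn made up 34.6% to 38.9% of the summed level of both ligands per kilobase in mutants and 18.4% to 19.7% in controls. That sum was 8976.7, 11666.3 and 8958.2 normalised counts per kilobase in mutant libraries, against 5801.8, 6181.2 and 6644.3 in control libraries.

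Among the receptors, the phosphatase gene Ptprz1 stood slightly lower in the mutants. It is on the same chromosome as Ptn, at chr6:22875502-23052916 on the plus strand. Its normalised count was 3499.7, 3076.7 and 3515.1 in mutant libraries 1, 2 and 3, against 3790.8, 3650.8 and 3572.7 in the controls. The groups did not overlap, although mutant library 3 and control library 3 were close. The log2 fold change was -0.13 ± 0.0603 (SE; 95% interval -0.27 to 0.0089). Without mutant library 2 the log2 fold change was -0.065. The full-length receptor and its shorter forms, among them the secreted proteoglycan phosphacan, are not separated by a count per gene.

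Alk, the receptor kinase gene at chr17:71868972-72604627 (minus strand), was scarce in both groups. It had 111, 116.1 and 100.5 normalised counts in mutants and 88.4, 114.3 and 124.4 in controls, from 83 to 147 reads a library. The control libraries spread more widely than the mutant libraries and enclosed them. The log2 fold change was 0.014 with a 95% interval of -0.36 to 0.39, and its sign changed under 4 of 17 other settings. The interval holds both the spread between libraries and the counting error of so few reads.

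The 3 syndecan genes did not all lie on the same side of the controls. Sdc3, the neuronal member, at chr4:130792537-130826319 (plus strand), had 6850.4, 5450.1 and 6041 normalised counts in mutant libraries 1, 2 and 3, against 7368.7, 7047.7 and 7103.9 in controls. All mutant values lay below all control values, with mutant library 2 the lowest. The means were 6114 ± 703 in mutants and 7173 ± 171 in controls (SD, n = 3 each), so that the mutants stood at 85.2% of the controls (log2 fold change -0.24 ± 0.0767 SE, 95% interval -0.41 to -0.062). Annotated antisense transcripts share 6.93% and 0.80% of its exon bases, and without a stated strand setting their reads could be counted with it.

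Sdc1, better known from epithelia and plasma cells, at chr12:8771323-8793715 (plus strand), had 504, 451.8 and 385.9 normalised counts in mutant libraries 1, 2 and 3, against 549.5, 624.2 and 531.4 in controls. These groups did not overlap either, and here mutant library 3 was the lowest. The means were 447 ± 59.2 in mutants and 568 ± 49.2 in controls (SD, n = 3 each), a log2 fold change of -0.35 ± 0.111 (SE; 95% interval -0.60 to -0.098). It was -0.55 without mutant libraries 1 and 2. Sdc4, a widely expressed syndecan of focal adhesions, at chr2:164424247-164443887 (minus strand), had 666.8, 746.9 and 706.9 in mutants against 574, 698.7 and 677 in controls. The groups overlapped, with control library 1 lower than the other 5 libraries (log2 fold change 0.12, 95% interval -0.078 to 0.33).

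Ncl, which encodes nucleolin, at chr1:86344719-86359400 (minus strand), had 18510.9, 15608.2 and 16595.4 normalised counts in mutant libraries 1, 2 and 3, against 17936.2, 17722.1 and 17014.8 in controls. The mutant libraries lay on both sides of the controls. The log2 fold change was -0.058 with a 95% interval of -0.21 to 0.094. Small nucleolar RNAs and a microRNA annotated inside Ncl share 0.55% to 1.31% of its exon bases each.

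As a description of the choice, 1 of the 8 genes, Ptn, was past an adjusted p of 0.05 in the limma fit over 16064 genes, where 1.15% of all genes tested passed, 0.928% higher and 0.218% lower in mutants. In 5 of the 8 the groups did not overlap, 2 higher and 3 lower in mutants, as in 23.2% of all genes tested (11.5% higher, 11.7% lower). With edgeR on the recovered reads 1 of the 8 was past it, where 1.12% of all genes were, and with DESeq2 2 were, Ptn and Mdk, where 5.7% of all genes were. Sdc3 was past it in 1 of the 17 other settings, the limma fit without mutant library 1, in which 600 of all genes tested were. Nothing is read from these counts, since the comparison helped to choose the genes. The log2 fold change was positive in 4 genes and negative in 4, with a median of -0.022, against -0.0067 for all genes tested. Over the 17 other settings the log2 fold change of Ptn ran from 1.47 to 1.71. The sign of Mdk, Ptprz1, Sdc1, Sdc3, Sdc4 and Ncl was the same in all 17, scaling by TMM or equal totals included.

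**Figure D2:**
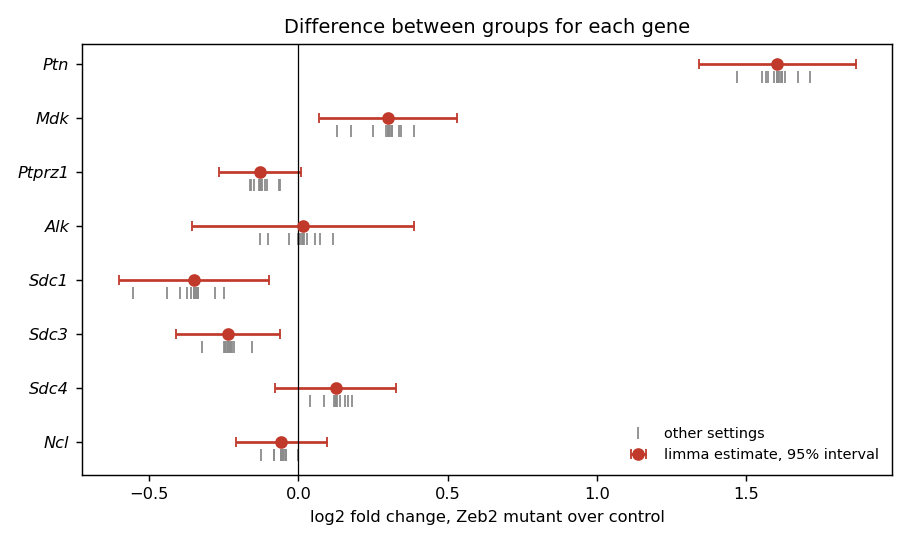
Log2 fold change of Zeb2 mutant over control (horizontal axis) for each gene, with the limma estimate and its 95% interval as points and bars and the values under 17 other settings as grey ticks. Ptn stands at 1.61, the other 7 between -0.35 and 0.30, and the ticks of Alk fall on both sides of 0.

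Libraries of one group differed more in some genes than in others. The coefficient of variation in mutants was 17.6% for Ptn, 15.5% for Mdk, 7.40% for Ptprz1, 13.2% for Sdc1, 11.5% for Sdc3 and 8.73% for Ncl. In controls it was 8.55% for Ptn, 6.59% for Mdk, 3.01% for Ptprz1, 8.66% for Sdc1, 2.39% for Sdc3 and 2.75% for Ncl, each smaller than in the mutants. For Alk it was 7.28% in mutants and 17.0% in controls, and for Sdc4 5.67% in mutants and 10.3% in controls. Counting error alone would give 0.787% to 1.77% at the lowest library of Ptn, Mdk, Ptprz1, Sdc3 or Ncl, 4.31% for Sdc4, 5.13% for Sdc1 and 11.0% for Alk. Mutant library 2 held the highest mutant value of Ptn, Mdk, Alk and Sdc4, and the lowest mutant value of Ptprz1, Sdc3 and Ncl.

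Levels of different genes can be set side by side only per length. Per kilobase of annotated exon, Mdk was the most abundant of the 8 in every library, with 6217 ± 965 normalised counts per kilobase in mutants and 5019 ± 331 in controls (SD, n = 3 each). In control retinas Ncl followed at 1723 ± 47.3, then Sdc3 at 1198 ± 28.6 and Ptn at 1190 ± 102 per kilobase, the last 2 within their spread of each other. Ptprz1 (258 ± 7.76) and Sdc4 (255 ± 26.2) were likewise not apart beyond their spread in controls, above Sdc1 (149 ± 12.9) and Alk (14.1 ± 2.39). In mutant retinas Ptn was in place 2 in all 3 libraries, at 3650 ± 641 per kilobase, above Ncl (1659 ± 145) and Sdc3 (1021 ± 117). Sdc4 (278 ± 15.7) then stood above Ptprz1 (236 ± 17.5), Sdc1 (117 ± 15.5) and Alk (14.1 ± 1.03). With the longest coding transcript as the length, Ptn was in place 3 in controls and in place 2 in mutants. By that length Ptprz1 stood above Sdc4 in both groups, at 417 against 288 per kilobase in mutants and 455 against 264 in controls. The order of Ptprz1 and Sdc4 therefore depended on the length used. Ncl was divided by 10188 annotated exon bases, among them bases of small nucleolar RNAs, or by 8202 bases of its longest coding transcript. With a shorter length Ncl would stand higher, so its place below Mdk, and in mutants below Ptn, holds only for these lengths. Sdc3 made up 68.8% to 74.4% of the summed level of Sdc1, Sdc3 and Sdc4 per kilobase in mutants and 72.9% to 76.9% in controls. That sum leaves out Sdc2, a further syndecan gene outside the 8. Sdc2 had 1472 ± 138 normalised counts in mutants and 1294 ± 136 in controls (log2 fold change 0.19, limma adjusted p = 0.336).

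**Figure D3:**
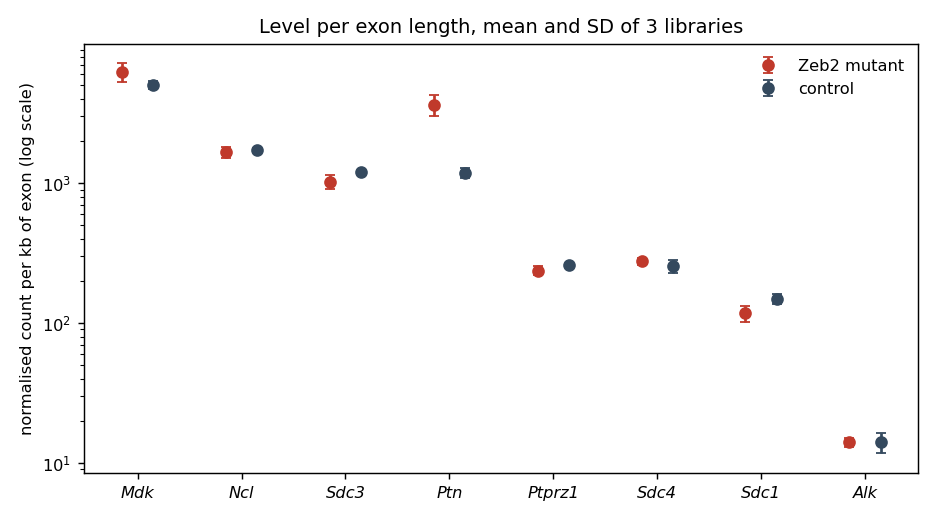
Normalised count per kilobase of annotated exon (log axis) for the 8 genes, ordered by their control mean, with mean and SD of 3 libraries per group. Ptn stands at 3650 per kilobase in Zeb2 mutants and 1190 in controls, while Mdk is highest in both groups by this length.

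The genes whose pattern over the 6 libraries was closest to that of Ptn were Hddc3, Slc27a2, Epcam, Tmem215 and Plcd4. Closeness was the root-mean-square difference in log2(normalised count + 1), centred on each gene's mean, among 13288 genes with a mean of at least 50. It was 0.14 for Hddc3, which encodes an HD-domain phosphohydrolase, 0.15 for Slc27a2, a fatty acid transporter and acyl-CoA synthetase, and 0.15 for Epcam, an epithelial adhesion molecule. For Tmem215, a transmembrane protein gene, it was 0.16, and for Plcd4, a phospholipase C, 0.17. The nearest of the other 7 genes, Mdk, was at 0.66. Epcam had 213.4, 382.2 and 299.6 normalised counts in mutant libraries 1, 2 and 3, against 98, 80.8 and 93.9 in controls, the same order of mutant libraries as for Ptn. The fold changes of the 5 genes ran from 2.65-fold (Hddc3) to 3.18-fold (Epcam). All 5 were picked for this likeness, so it is a description.

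**Figure D4:**
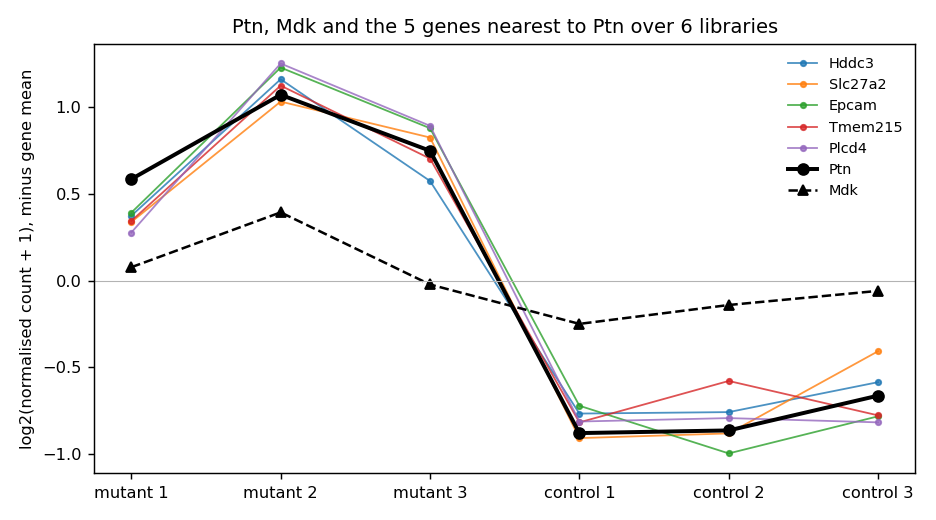
Log2(normalised count + 1) minus each gene's mean (vertical axis) in the 6 libraries, for Ptn, Mdk and the 5 genes nearest to Ptn, with lines joining the values of 1 gene. The 5 genes and Ptn are highest in mutant library 2, and Mdk has the same high point with a smaller range.

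Genes next to Ptn on chromosome 6 had smaller differences. Of the 5 tested genes nearest on each side, 35.8 to 1467.3 kb away, 0 of 10 passed the limma test over all genes, where 1.15% of all genes did. Their count at an unadjusted limma p under 0.05 was 1, where 17.3% of all genes tested were, and edgeR and DESeq2 called 0. Their log2 fold changes ran from -0.25 to 0.27. Dgki, a diacylglycerol kinase gene 35.8 kb away, had 165 ± 21.7 normalised counts in mutants and 147 ± 12.7 in controls. Chrm2, a muscarinic receptor gene 186.5 kb away on the other side, had 38.4 ± 3.06 in mutants and 46.0 ± 3.90 in controls (SD, n = 3 each; limma adjusted p = 0.606 and 0.537). These genes were picked by distance after the values of Ptn were known.

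Other genes of the pathway were followed in 10 lists, from which the 8 genes were left out and which share some members, such as Ptprs and Cspg5. Over all genes tested, limma called 1.15% (0.928% higher, 0.218% lower), edgeR 1.12% and DESeq2 5.7%, and 17.3% had an unadjusted limma p under 0.05. Of 13 further co-receptors of pleiotrophin and midkine, 0 were called in either direction by limma over all genes (median log2 fold change -0.031), with 1 at an unadjusted p under 0.05, 0 by edgeR and 1, Ptprs, by DESeq2. Ptprs, a receptor phosphatase that binds chondroitin and heparan sulphate, had 21557.6 ± 570 normalised counts in mutants and 24363.5 ± 142 in controls (limma adjusted p = 0.107). Cspg5, a brain chondroitin sulphate proteoglycan, had 8369.7 ± 45.7 in mutants and 8753 ± 161 in controls (limma adjusted p = 0.464). The ALK-related kinase gene Ltk was the 1 tested gene of its list, with 68.5 ± 10.6 in mutants and 52.3 ± 9.40 in controls (limma adjusted p = 0.376; 0 also at an unadjusted p under 0.05, by edgeR and by DESeq2). Among 11 receptor tyrosine phosphatases 0 were called by limma (median -0.031), 2 had an unadjusted p under 0.05, edgeR called 0 and DESeq2 called 2, Ptprs and Ptprk, both lower. Ptprf, the gene of the phosphatase LAR, had a log2 fold change of 0.12 (limma adjusted p = 0.398).

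Of 16 binding partners and substrates of PTPRZ1, limma called 1 lower and 0 higher (median log2 fold change -0.057). At an unadjusted limma p under 0.05 there were 7, edgeR called 1, Tnr, lower, and DESeq2 called 2, Tnr, lower, and Nfasc, the neurofascin gene, higher. Tnr, which encodes the matrix protein tenascin-R, had 624.5, 450.9 and 611.4 normalised counts in mutants against 898.7, 853.9 and 919 in controls, a log2 fold change of -0.68 ± 0.120 (SE; limma adjusted p = 0.0379). All mutant values lay well below the controls. Leaving out control library 1, 2 or 3 brought the limma adjusted p of Tnr to 0.165, 0.0722 or 0.0991, and leaving out mutant library 3 to 0.0646 (range over alternatives 7.04e-06 to 0.165). Ctnnb1, β-catenin, a substrate of the phosphatase, had a log2 fold change of 0.056 (limma adjusted p = 0.594).

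Of 5 tested chondroitin sulphate proteoglycan cores, limma called 1 higher and 0 lower (median log2 fold change 0.34). An unadjusted limma p under 0.05 was found for 2, edgeR called 0, and DESeq2 called 2 higher, Vcan and the brevican gene Bcan. Vcan, which encodes versican, had 832.7, 1104.9 and 904.9 normalised counts in mutants against 436.6, 652.5 and 484 in controls, 1.82-fold higher (log2 fold change 0.86 ± 0.155 SE; limma adjusted p = 0.0405). The order of the mutant libraries was that of Ptn, with library 2 the highest. The limma adjusted p of Vcan was 0.159 or 0.101 when control library 1 or 3 was left out, 0.149 or 0.0955 when mutant library 2 or 3 was, and 0.143 with mutant library 3 as the only mutant library. edgeR gave an adjusted p of 0.0520 for it (range over alternatives 9.56e-07 to 0.159).

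The enzymes that build the sugar chains, and the other heparan sulphate carriers, gave no limma or edgeR call. In limma's fit over all genes 0 of 10 heparan sulphate proteoglycan cores, 0 of 21 genes of heparan sulphate synthesis and editing, 0 of 15 of chondroitin sulphate synthesis and 0 of 7 of the linker region were called. At an unadjusted p under 0.05 these were 3, 3, 2 and 1, edgeR called 0 in each, and DESeq2 called 1, the glypican gene Gpc3, higher, among the cores and 0 in the others. Their median log2 fold changes were 0.011, -0.014, -0.073 and -0.046. Agrn, encoding agrin, and Gpc1, encoding glypican-1, were at 0.030 and -0.14, and the sulphatase gene Sulf2 and the sulphotransferase gene Ndst1 at 0.18 and -0.13. Chsy1 and Chpf, of chain polymerisation, were at 0.047 and -0.073, and the linker genes Fam20b and B3gat3 at 0.017 and -0.034 (limma adjusted p from 0.168 to 0.883 for these 8 genes). Of 10 nucleolar partners of nucleolin 0 were called by limma, edgeR or DESeq2, 1 had an unadjusted p under 0.05, and all 10 had negative log2 fold changes (median -0.093), with Npm1 and Ubtf at -0.091 and -0.10 (limma adjusted p = 0.492 and 0.387).

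Markers of cell types that the retina holds, or that can come with it, were set beside Ptn. Of 17 Müller glia and late progenitor markers limma called 1 lower, Sox9, and 0 higher, and edgeR called the same gene. DESeq2 called 6, of which Aqp4, Car2, Crym, Gpr37 and Hes1 were higher and Sox9 lower, and 5 had an unadjusted limma p under 0.05. Aqp4 is on the astrocyte list as well. It had 89.8, 130.6 and 19.3 normalised counts in mutant libraries 1, 2 and 3, against 17.0, 39.9 and 20.3 in controls. In 12 of the 17 the log2 fold change was positive and in 5 negative (median 0.10). Without overlap of the groups, 5 of the 17 lay above and 2 below the controls, where 11.5% and 11.7% of all genes tested did. The summed normalised count of the 17 was 126272.0 to 141132.3 in mutants and 117394.7 to 126154.7 in controls. The lowest mutant sum was barely above the highest control sum. Sox9, which encodes a regulator of retinal progenitors and glia, fell to 3593 ± 188 in mutants, against 4368 ± 90.9 in controls (SD, n = 3 each; limma adjusted p = 0.0379). Leaving out control library 1, 2 or 3 made that p 0.140, 0.113 or 0.106, and leaving out mutant library 2 or 3 made it 0.130 or 0.0856 (range over alternatives 0.000314 to 0.140). Dkk3, the most abundant of the list and so the largest part of its sum, had a log2 fold change of 0.20 (limma adjusted p = 0.337). Its normalised count was 33935.3 ± 5014 in mutants and 29377.3 ± 1219 in controls (SD, n = 3 each).

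Astrocyte and mesenchyme transcripts were uneven between the mutant libraries. Astrocyte markers summed to 8334.0, 6585.1 and 2759.5 in mutant libraries 1, 2 and 3, against 2246.9 to 2944.0 in controls, with Gfap at 5130.2, 3772.4 and 234.6 in mutants and 143.8 to 466.3 in controls. All 8 had positive log2 fold changes (median 0.85). Without overlap of the groups, 3 lay above and 0 below the controls, where 11.5% and 11.7% of all genes tested did. These 3 were Aldh1l1, Cxcl12 and Pax2, at 76.2, 418.4 and 351.4 in mutant library 3. Their highest control values were 59.2, 397.6 and 286.9 (genes named after their values were seen). limma over all genes called 0 of the 8, 5 had an unadjusted p under 0.05, edgeR called 0, and DESeq2 called 4, all higher (Aqp4, Cxcl12, Gfap and Pax2). Pdgfra, the most abundant of the list after Gfap, had a log2 fold change of 0.032 (limma adjusted p = 0.896). It made up 1570.2 of the astrocyte sum in mutant library 3. Mesenchyme and meningeal markers summed to 11091.8, 8593.5 and 5297.5 in mutants, against 3692.0 to 3951.8 in controls (median log2 fold change of 10 tested 1.76; limma, edgeR and DESeq2 each called 1 higher and 0 lower, and 1 had an unadjusted limma p under 0.05). The called gene, Col6a1, a collagen VI chain, had 3514.5, 5282.7 and 4361.1 in mutants and 2054.1 to 2603.5 in controls (limma adjusted p = 0.0240). Leaving out control library 1, 2 or 3 gave Col6a1 an adjusted p of 0.0737, 0.0550 or 0.0611, and leaving out mutant library 2 or 3 gave 0.0611 or 0.0711 (range over alternatives 0.000246 to 0.0737). It made up most of the sum in mutant library 3. There the defining genes Col1a1, Col3a1 and Dcn stood at 62, 6.1 and 1, inside or below the control ranges of 37.3 to 260.2, 5.3 to 90.2 and 1.1 to 18.9, and Lum was at 0 (genes named after their values were seen).

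Astrocyte and mesenchyme sums were highest in mutant library 1, and Ptn in mutant library 2. Col6a1, the gene called in the mesenchyme list, had the same order of mutant libraries as Ptn, 2, 3, 1 from high to low. The order was 1, 2, 3 for Col1a1, Col3a1, Dcn and Lum of that list, so Col6a1 did not follow these defining genes. With mutant library 3 as the only mutant library, assumed to vary like the controls, the log2 fold change of Ptn was 1.55. The part of astrocyte, mesenchyme, Müller glia or progenitor transcripts in the difference was not tested.

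**Figure D5:**
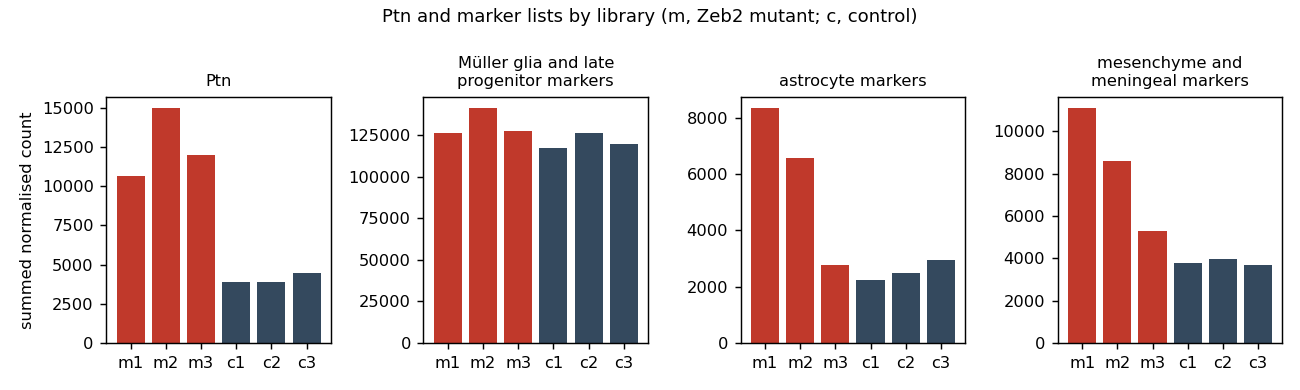
Normalised count of Ptn and summed normalised counts of 3 marker lists (vertical axes from 0) in mutant libraries 1 to 3 and control libraries 1 to 3. Astrocyte and mesenchyme sums are highest in mutant library 1. Ptn is highest in mutant library 2 and stands at 11956 in mutant library 3.

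The remaining marker lists gave few calls. In limma's test over all genes 0 of 9 endothelial and mural genes, 0 of 9 lens, pigment epithelium and ciliary genes and 0 of 7 microglia and blood genes passed (median log2 fold changes -0.10, -0.92 and 0.33). At an unadjusted p under 0.05 these were 0, 1 and 1, edgeR called 0 in each, and DESeq2 called 1, Msx1, lower, among the lens and ciliary genes and 0 in the others. The endothelial sum was 18119.8 to 20315.7 in mutants and 18737.1 to 21471.7 in controls. Most of it was Kdr, at 17338.1 to 19206.6 in mutants and 17838.3 to 20105.1 in controls, so the sum says little of the other endothelial and mural genes. The microglia and blood sum was 1638.3 to 2037.7 in mutants and 999.8 to 1955.5 in controls. The lens, pigment and ciliary sum was 2837.8 to 3839.2 in mutants and 2356.4 to 10306.1 in controls, where control library 2 was the highest. Of 12 neural retina markers limma and edgeR called 1 lower, Lhx1, and 0 higher (median log2 fold change 0.052). An unadjusted limma p under 0.05 was found for 5, and DESeq2 called 3, Lhx1 and Pax6, lower, and Six3, higher. Lhx1, a gene of horizontal cells, had 128 ± 27.1 in mutants and 275 ± 15.4 in controls (SD, n = 3 each; limma adjusted p = 0.0237). The limma adjusted p of Lhx1 was 0.113 or 0.0580 when control library 1 or 3 was left out, and 0.0520 with mutant library 3 as the only mutant library (range over alternatives 2.98e-07 to 0.113). Over all 17 lists, limma called 5 of 175 genes tested (2.86%), 2 higher and 3 lower, where it called 1.15% of all genes, 0.928% higher and 0.218% lower.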

How the data were processed

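The authors deposited 1 table of normalised counts, a signal per gene and library rounded to 1 decimal, in which 6 columns matched the 6 samples and 0 other columns held values. cutadapt, STAR 2.4.2a, HTSeq, DESeq2 and GRCm38 are named in the submitters' processing notes without role or order, and a strand setting is not given. In each library 100% of values lay within 0.06 of whole multiples of the worth of 1 read, which gave the recovered reads (26041200 to 32614805 per library). The precision this depth gives for a gene is stated beside it as a counting error.

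Groups were compared by limma 3.58.1 in R 4.3.3, with trend and no covariates, on the log2(normalised count + 1) of 16064 genes whose mean was at least 10. Tests were 2-sided with Benjamini-Hochberg adjustment over all genes, called under 0.05. Fold changes on this scale understate those of low genes. The steps were tested on simulated data, with 40 genes changed at each size. They called 55% and 42.5% of genes at log2 changes of -0.5 and 0.5, 70% and 80% at -1 and 1, and 97.5% at 2. A gene that was not called may therefore still differ. 20115 of 20175 gene IDs matched GENCODE M21, which gave positions and exon lengths, and promoter sequences came from RefSeq on GRCm38.p6.

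Members, lists and alternatives were chosen with earlier results of these data known. The rule for named genes took the 8 genes, Zeb2, of each list up to 4 called members with the smallest adjusted p, filled to 2 with the most abundant, and the 5 genes nearest to Ptn. The 17 lists held 182 symbols, 178 of them in the table. Alternatives were other pseudocounts (0.1 and 5), filters (none, or a mean of at least 50), scalings (TMM, equal totals), array weights, edgeR 4.0.16 and DESeq2 1.42.0 on recovered reads, a replicate block and leaving out libraries. The labels name no batch.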

Additional observations from a re-analysis of the deposited data

How the results depend on the processing

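With 17 other settings, 0 results changed sign among those called in the limma fit. The limma count of 184 genes (149 higher, 35 lower) was 27 to 600 with 1 library left out (27 to 358 higher, 0 to 242 lower), and the 5 list genes called were 0 to 10. Leaving out control library 1, 2 or 3 gave 27, 108 or 94 genes, and leaving out mutant library 1, 2 or 3 gave 600, 58 or 79. edgeR called 180. DESeq2 called 879, of which 536 were higher and 343 lower, and 21 list genes. Without mutant libraries 1 and 2, 86 were higher and 79 lower. The log2 fold changes of Mdk and Sdc1 in that setting were 0.13 and -0.55, a move of more than 1 SD between replicates, and the cause was not tested. That of Zeb2 was -0.40 (adjusted p = 0.0375) without mutant library 1 and -0.30 (adjusted p = 0.0144) with DESeq2. With 1 library left out, the log2 fold change was 1.47 to 1.71 for Ptn, 0.18 to 0.39 for Mdk, -0.16 to -0.065 for Ptprz1, -0.44 to -0.25 for Sdc1, -0.32 to -0.16 for Sdc3, and -0.40 to -0.20 for Zeb2.

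Replicate numbers are shared by mutant and control samples, but deviations of same-numbered libraries from their group means correlated at 0.016, 0.149 and -0.063 for numbers 1, 2 and 3 over 16064 genes, so the numbers were not taken to pair samples. With the replicate block 248 genes were called, 190 higher and 58 lower, and Sox9 was not (adjusted p = 0.0625). Counting error was largest for Alk among the 8 genes, at 83 to 147 reads a library.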
